A study of Mus musculus with 8 samples.

Results

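The 9 genes described here encode 8 carboxylesterases (Ces1d, Ces1e, Ces1f, Ces1g, Ces2a, Ces2b, Ces2c and Ces2e) and the arylacetamide deacetylase Aadac. They were taken by symbol from the deposited table of 41128 gene rows, and all 9 were found. RNA came from full-thickness pieces of the last 6 cm of ileum before the ileocecal valve, with 1 library of messenger RNA per mouse. The 8 mice were FVB animals in 4 sex-matched littermate couples, each with a Cftr null mouse (KO, Cftr -/-, allele Cftrtm1Cam) and a control (WT, Cftr N/N). In 1 female couple both mice drank water with 0.3 g/L ciprofloxacin and 0.5 g/L metronidazole (1 KO, 1 WT). The other couples had no antibiotics (KO n = 3, WT n = 3), with females in couples 1 and 3 and males in couple 2. All mice had been kept on a low fiber diet with an osmotic laxative, which was stopped more than 4 days before sampling. Ages are not given in the labels.

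Carboxylesterases and Aadac are serine hydrolases of the endoplasmic reticulum. They split ester and amide bonds in drugs, pesticides and prodrugs, and several of them also hydrolyse acylglycerols or cholesteryl esters, which ties them to lipoprotein assembly. In mammals, members of the Ces2 group are typical of the small intestine, and members of the Ces1 group are typical of the liver and adipose tissue. In the mouse both groups have been expanded by tandem duplication.

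The positions of the genes follow this history. In GENCODE M21 (GRCm38), the 8 Ces1 genes with a row in the table lie on the minus strand of chromosome 8 from 93020214 to 93379725, and the 8 Ces2 genes lie on the plus strand of the same chromosome from 104734003 to 105021178. Ces1d, Ces1e, Ces1f and Ces1g are direct neighbours among the Ces1 genes, from 93166068 to 93337308. Ces2a (104734003 to 104741634), Ces2b (104831572 to 104840093) and Ces2c (104847068 to 104854483) are the first 3 genes of the Ces2 group, and Ces2e (104926260 to 104934672) is the fifth, after the pseudogene Ces2d-ps. Aadac stands alone on chromosome 3, from 60025717 to 60040160 on the plus strand.

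Coding sequences of the 4 Ces2 members were 82.6% to 91.4% identical to each other, with Ces2b and Ces2c the closest pair. Those of the 4 Ces1 members were 74.5% to 81.8% identical, and Ces1 and Ces2 members shared 56.1% to 59.0%. Aadac was 42.5% to 45.4% identical to the others. Relatedness of this kind can mix reads between genes. Of the 50-base windows of its transcript, Ces2c shared 42.2% exactly with some other gene (38.2% with Ces2d-ps), and Ces2a shared 22.2% (20.9% with Gm7208, not analysed here). The share was 9.80% for Ces2b, 1.28% to 3.36% for Ces2e and the Ces1 members, and 0 for Aadac. How the authors assigned such reads is not given in the sources used here, so the values of Ces2c and Ces2a are less certain than the others. Ces2d-ps itself was listed at 0.375, 1.05 and 1.41 in KO and 1.96, 2.82 and 2.61 in WT ileum of couples 1, 2 and 3, far under Ces2c.

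The 250 bases before the start sites of Ces2a, Ces2c and Ces2e (RefSeq, GRCm38.p6, plus strand) are shown because these neighbouring genes had the highest values of the group in WT ileum and KO values below WT in each untreated couple. Capitals mark the words of 7 bases that occur in all 3 on this strand.
Ces2a, chr8:104733753-104734002: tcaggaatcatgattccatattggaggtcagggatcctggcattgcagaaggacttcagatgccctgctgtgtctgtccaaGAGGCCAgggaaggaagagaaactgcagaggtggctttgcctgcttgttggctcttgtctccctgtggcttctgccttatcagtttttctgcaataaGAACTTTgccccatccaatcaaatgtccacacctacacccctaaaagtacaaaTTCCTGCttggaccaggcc
Ces2c, chr8:104846818-104847067: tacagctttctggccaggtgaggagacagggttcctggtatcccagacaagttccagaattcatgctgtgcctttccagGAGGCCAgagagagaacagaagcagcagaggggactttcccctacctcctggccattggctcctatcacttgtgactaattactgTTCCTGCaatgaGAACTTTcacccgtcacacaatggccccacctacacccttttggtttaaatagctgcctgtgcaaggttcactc
Ces2e, chr8:104926010-104926259: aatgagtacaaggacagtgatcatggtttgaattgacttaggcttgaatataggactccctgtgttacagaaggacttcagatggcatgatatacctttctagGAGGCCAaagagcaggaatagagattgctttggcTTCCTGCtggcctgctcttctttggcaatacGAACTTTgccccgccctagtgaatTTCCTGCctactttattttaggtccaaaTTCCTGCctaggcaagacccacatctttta

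The word GAACTTT begins 72, 74 and 82 bases before the start of Ces2a, Ces2c and Ces2e, and 1.68% of 32851 promoters of this length hold it on the same strand. GAGGCCA and TTCCTGC are in 3.52% and 3.76% of promoters. Ces2a and Ces2e also share the run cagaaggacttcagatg, which no other promoter in the set contains (2 of 32851 with it). Aligned end to end, the Ces2a and Ces2c windows were 65.8% identical, and the other pairs were 54.5% (Ces2a and Ces2e) and 53.5% (Ces2c and Ces2e). Promoters were given for 6 members, and each was searched on both strands for 6 short words. The word AGGTCA, read by many nuclear receptors, was found in Ces2a alone (14.0% of promoters hold it). TTTATG, a core of CDX2 sites, and AGATAA, a core of GATA sites, were found in Ces1e and Ces1g (10.8% and 10.0% of promoters). The TATA word TATAAA (12.4%) was found in Ces1g only in reverse, 26 to 21 bases before the RefSeq start. That stretch lies inside the GENCODE M21 gene, which starts further upstream, at 93337308. The Aadac window (60031538 to 60031787) also lies inside its GENCODE M21 gene, which starts at 60025717. CAAAGTC, part of HNF4 sites (3.8%), and GTTAAT, part of HNF1 sites (6.4%), were in none of the 6. These matches describe letters and do not show binding. Only these exact spellings were searched, so a word that was not found does not mean that sites of that factor are absent.

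The authors' values carry no unit name and were taken as RPKM, scaled by gene length, because they fall with exon length. Comparisons of level between genes rest on that reading. Sorted values are identical in all columns of couples 1 and 2, and those of couple 3 and the antibiotic couple differ from them. The columns were therefore taken as 3 separately normalized sets (couples 1 and 2, couple 3, the antibiotic couple). In couple 3 and the antibiotic couple, sums also differ between littermates, so a shared normalization within these couples is not shown. Levels set across the sets carry any difference in normalization. The read depth is unknown, and the 8 columns sum to between 346794 and 397082. Cftr was 2.65 to 3.74 in untreated KO and 9.94 to 12.4 in untreated WT libraries, and 4.94 in the KO and 13.8 in the WT mouse given antibiotics. Differences below are on the scale of log2(value + 1), which understates changes of low values. They were tested by limma, with p-values adjusted over all genes tested and called at 0.05. Each library comes from 1 mouse, so the spread is between mice.

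**Figure D1:**
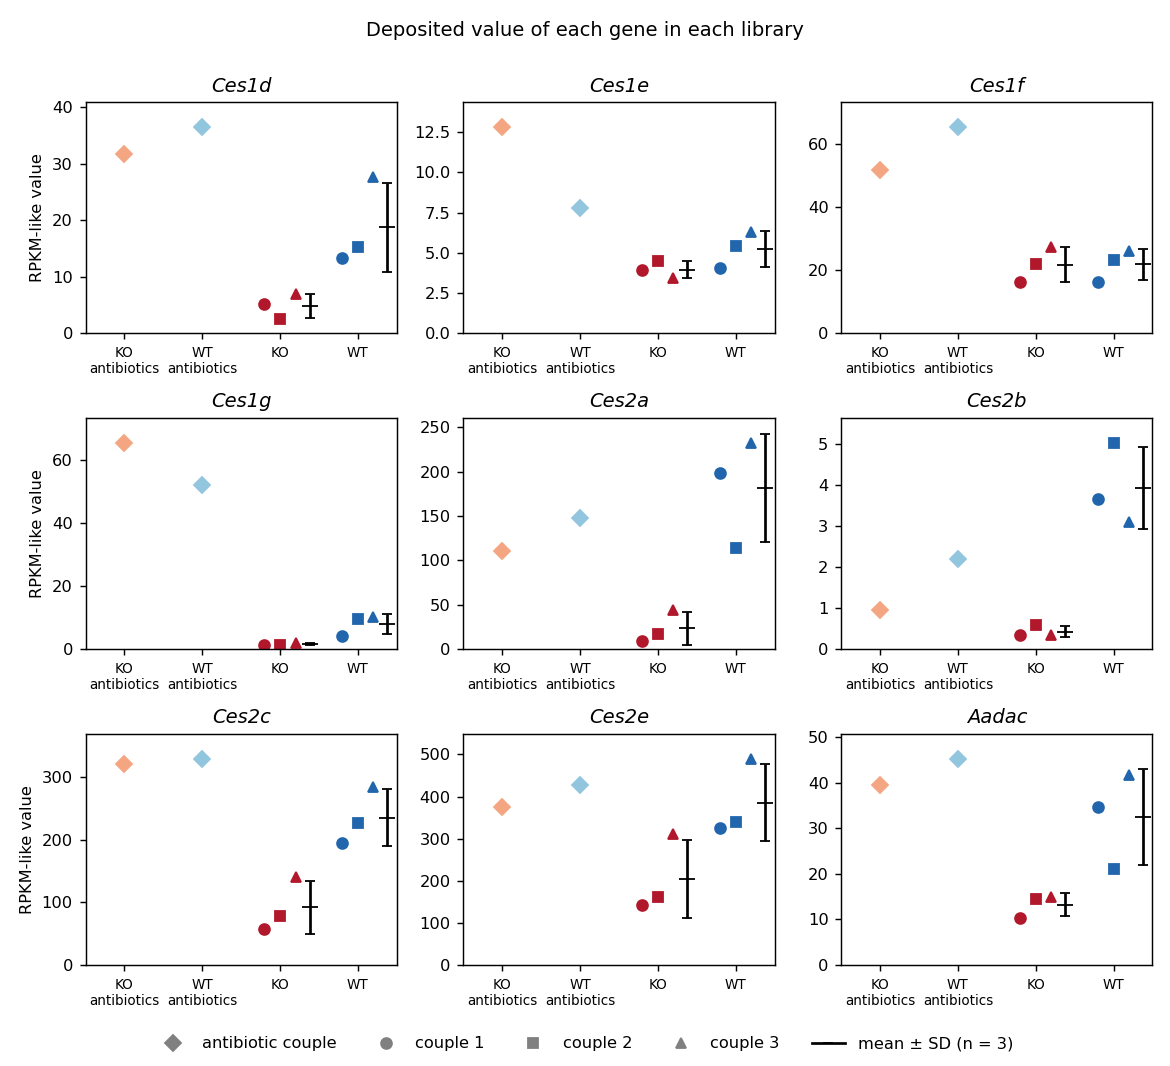
Deposited RPKM-like value (vertical axes, from 0) of each of the 9 genes in each of the 8 libraries, grouped by genotype and antibiotics, with bars for the mean and SD of untreated groups (n = 3). Untreated KO values lie below all untreated WT values for 7 of the genes, while Ces1f and Ces1e overlap, and the KO mouse given antibiotics lies above all untreated KO mice for each gene.

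In untreated ileum the levels spanned 3 orders of size. Ces2e was the highest member in both genotypes, with means of 204 ± 92.3 in KO and 385 ± 90.6 in WT (SD, n = 3 each), and ranked 210 in KO and 111 in WT among 11717 genes tested. Ces2c came next, at 92.3 ± 42.5 in KO and 235 ± 45.6 in WT. In WT, Ces2a followed at 181 ± 60.7, with values that overlap those of Ces2c, and then Aadac (32.5 ± 10.5), Ces1f (21.8 ± 5.05) and Ces1d (18.8 ± 7.83), whose ranges overlap. Ces1g (7.99 ± 3.24), Ces1e (5.25 ± 1.13) and Ces2b (3.93 ± 0.991) were the lowest in WT and overlapped each other. In KO, the wide range of Ces2a (23.8 ± 18.6) overlapped those of Ces1f (21.8 ± 5.56) and Aadac (13.2 ± 2.48), which did not overlap each other, and Ces1d (4.90 ± 2.17), Ces1e (3.96 ± 0.534), Ces1g (1.60 ± 0.325) and Ces2b (0.425 ± 0.135) had the lowest means. By mean level, Ces2a ranked 2097 in KO and 236 in WT among the tested genes, whereas Ces1f ranked 2288 in KO and 2302 in WT.

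Untreated KO ileum held less RNA of most of these esterases than WT ileum. Of the 9 members, 3 fell in KO (Ces2a, Ces2b and Ces1g) and 0 rose, where 1.01% of all tested genes fell and 1.15% rose. With the littermate couple as a block, 7 fell and 0 rose, where 9.91% of all genes fell and 8.40% rose, and Ces1e and Ces1f were the other 2. KO was below its littermate in each of the 3 couples for 8 members, against 32.5% of all tested genes, and KO and WT values did not overlap, with KO lower, for 7 members, against 12.1%. The median log2 change of the members was -1.42, beside -0.01 over all genes tested. All 9 members passed the filter on low values, but Ces2b, under 1 in each KO library, passed only through its WT values. The members were also chosen with earlier results of these data known, so these counts are a description. In whole tissue, fewer cells of a type and less RNA per cell cannot be told apart.

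These calls rest on few mice and on the filter. With no filter on low values, 0 members and 4 of all genes fell. Leaving out the KO library of couple 1, 2 or 3 left 1, 1 or 2 members that fell, beside 28, 35 or 53 of all genes. Leaving out the WT library of couple 1, 2 or 3 left 1, 2 or 0 members, beside 44, 69 or 21 of all genes. Without any one whole couple 0 members and 0 of all genes fell. In the blocked fit 4, 2 and 5 members fell when couple 1, 2 or 3 was left out, beside 263, 221 and 275 of all genes. Ces2b failed the filter whenever an untreated WT library or a whole couple was left out, so it could not be called there.

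Ces2a, which hydrolyses drugs as well as di- and triacylglycerols, had the largest change of the group on the log2(value + 1) scale, while by the ratio of means (KO over WT) Ces2b was lower, at 0.108, against 0.131 for Ces2a. Ces2a was 9.14, 17.5 and 44.7 in KO mice of couples 1, 2 and 3, against 198, 114 and 232 in their WT littermates. The highest KO value was well under the lowest WT value, and the ratio of KO to WT littermate was 0.0462, 0.153 and 0.193. The log2 change was -3.10 (SE 0.53, adjusted p = 0.0332, lower in 3 of 3 couples; 0.0184 with the block). Leaving out KO of couple 1 or 2, or WT of couple 1 or 3, raised the adjusted p to between 0.0701 and 0.127.

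Ces2c, a close relative of the intestinal drug and triglyceride hydrolase CES2 of humans, was 58.2, 78.9 and 139.9 in KO and 195, 227 and 285 in WT mice of couples 1, 2 and 3. The groups did not overlap, and couple 3 had the highest value in each genotype. The log2 change was -1.42 (SE 0.34), with an adjusted p of 0.0945 without and 0.0148 with the block. It also passed without the block after quantile normalization across libraries (adjusted p = 0.0399).

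Ces2e was 142, 161 and 310.5 in KO and 326, 341 and 489.7 in WT mice. The KO mouse of couple 3 came close to the lowest WT value without reaching it. The change, -0.98 (SE 0.35), was the smallest of the Ces2 members, with an adjusted p of 0.223, and 0.0201 with the block. Its interval without the block was -1.79 to -0.16 (95%).

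Ces2b, the least abundant Ces2 member, was 0.354, 0.581 and 0.340 in KO and 3.65, 5.03 and 3.10 in WT mice. The ratio of KO to littermate was alike in the 3 couples, at 0.0969, 0.116 and 0.110. The log2 change was -1.78 (SE 0.19, adjusted p = 0.00644), but a gene under 1 in each KO library can enter the fit only if its WT values are high, so this p is no independent support. The change is small beside those ratios because 1 was added to values under 1. With 0.1 added in place of 1 it was -2.94.

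The share of each gene in the summed value of the 9 members shows the unequal size of these changes. Ces2a made up 3.70%, 5.78% and 8.13% of the sum in KO and 24.9%, 15.0% and 20.7% in WT mice of couples 1, 2 and 3. Ces2e made up 53.1% to 57.6% in KO and 41.0% to 44.8% in WT, and the share of Ces2c overlapped (23.6% to 26.1% in KO, 24.5% to 29.8% in WT). The sum itself was 247, 302 and 550.0 in KO and 795, 761 and 1121 in WT. The 4 Ces1 members together made up 7.20% to 10.8% in KO and 4.75% to 7.04% in WT.

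**Figure D2:**
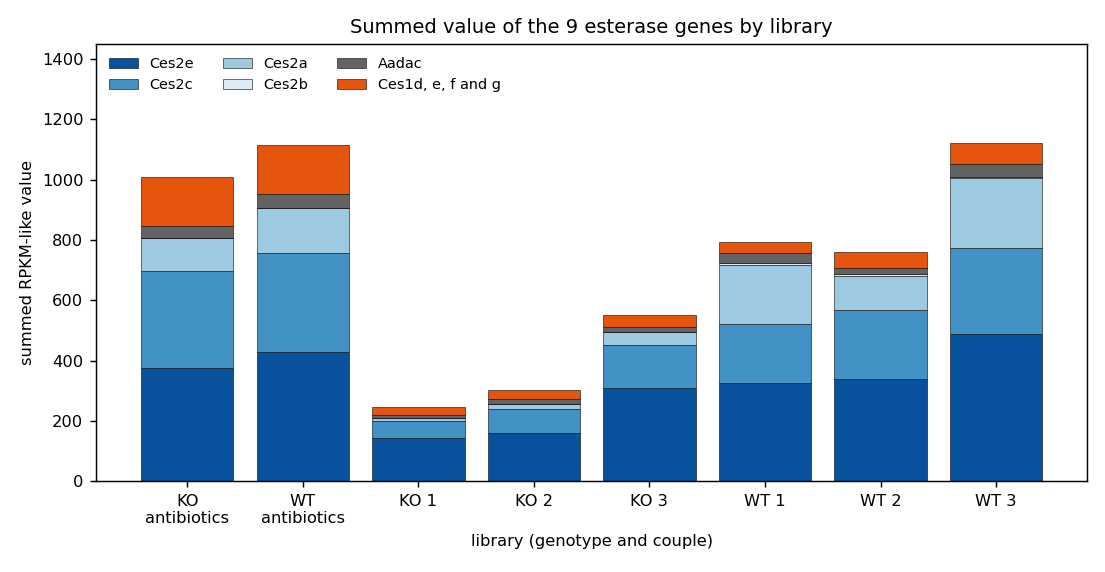
Summed RPKM-like value of the 9 genes (vertical axis, from 0) in each library, with the part of each Ces2 gene, of Aadac and of the 4 Ces1 genes together. The 3 untreated KO sums (247 to 550.0) lie below all other sums (761 to 1121), and the Ces1 part is largest in the antibiotic couple, at 162 in KO and 161 in WT.

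The Ces1 genes moved apart from each other although they are neighbours. Ces1d, a triacylglycerol hydrolase that takes part in hepatic lipoprotein secretion, was 5.13, 2.61 and 6.94 in KO and 13.3, 15.3 and 27.7 in WT mice of couples 1, 2 and 3. The groups did not overlap. The log2 change was -1.75 (SE 0.36), with an adjusted p of 0.0601, and 0.0152 with the block, under which it fell. Without the block it passed when columns were rescaled to equal sums (adjusted p = 0.0348).

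Ces1g, which hydrolyses triglycerides and cholesteryl esters in liver and intestine, was 1.45, 1.39 and 1.98 in KO and 4.25, 9.65 and 10.1 in WT mice. The KO values lay close together and below each WT value. It fell by 1.72 on the log2 scale (SE 0.30, adjusted p = 0.0322; 0.0182 with the block), and the adjusted p was 0.0824 to 0.126 in 5 of the 6 fits without 1 library. In the other fit, without WT of couple 1, it was 0.0111. With a pseudocount of 5 the change was -0.94 and the call was lost (adjusted p = 0.0509).

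Ces1f, known from liver and fat cells as a triacylglycerol hydrolase, was 16.2, 22.0 and 27.3 in KO and 16.2, 23.3 and 26.0 in WT mice. Littermates nearly matched in each couple, with ratios of KO to WT of 0.997, 0.944 and 1.05. The difference was -0.01 on the log2 scale, with a 95% interval of -0.59 to 0.58, and of -0.20 to 0.19 with the block, so a 2-fold change lay outside both intervals. Ces1e, or egasyn, which holds beta-glucuronidase in the endoplasmic reticulum, was 3.95, 4.50 and 3.44 in KO and 4.05, 5.42 and 6.29 in WT mice. The groups overlapped, and the change of -0.32 (95% interval -0.75 to 0.11, adjusted p = 0.450; 0.191 with the block) did not pass.

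Aadac, an esterase anchored in the same membrane that deacetylates drugs and acts on stored triacylglycerol, was 10.4, 14.4 and 14.9 in KO and 34.6, 21 and 41.7 in WT mice. The groups did not overlap, and couple 2 had the smallest gap. The log2 change was -1.19 (SE 0.27, adjusted p = 0.0845; 0.0366 with the block).

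**Figure D3:**
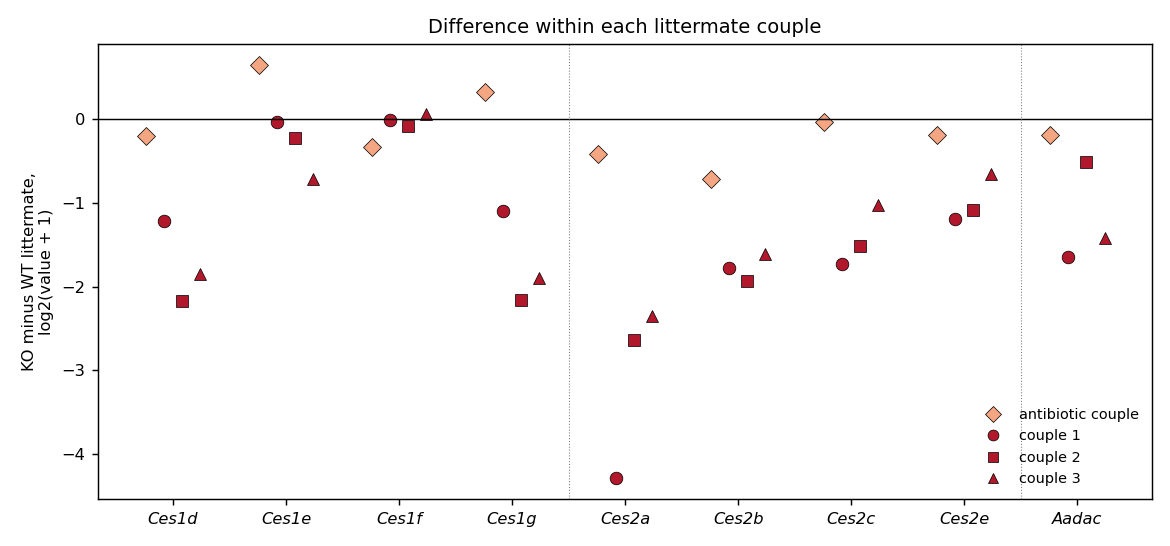
Difference of log2(value + 1) between the KO mouse and its WT littermate (vertical axis) for each gene in each of the 4 couples, with 0 marked by a line and the dotted lines parting Ces1 genes, Ces2 genes and Aadac. Untreated couples lie below 0 for each gene except Ces1f in couple 3 (0.07), and the antibiotic couple lies nearer to 0 than each untreated couple for 7 of the genes, Ces1e and Ces1f excepted.

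Other genes of ester hydrolysis were mostly lower too, by smaller steps. Of all 11717 genes tested, 6052 had a change below 0, 118 fell, and 1161 fell with the block. Of the 12 other carboxylesterase genes in the table, 3 passed the filter (Ces1c, Ces2d-ps and Ces2g), all with fitted changes below 0, and 0 were called (2 lower with the block; median -0.73). Ces1c, the most abundant of them and a secreted enzyme of the liver in mice, was 8.47, 2.57 and 3.69 in KO and 5.61, 6.72 and 4.10 in WT. Among 17 tested genes of other ester and neutral lipid hydrolases the median was -0.46, all 17 had a change below 0, and 2 fell (9 with the block). These 2 were Nceh1, a relative of Aadac that hydrolyses cholesteryl esters (-1.40, adjusted p = 0.0175), and Bche, butyrylcholinesterase (-1.07, adjusted p = 0.0397). Abhd6, a monoacylglycerol lipase and the most abundant of this list, was 21.6, 41.2 and 42.6 in KO and 56.7, 75.8 and 94.8 in WT (adjusted p = 0.129; 0.0133 with the block).

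Enzymes and transporters that handle the products of drug hydrolysis fell in part. Over all genes tested, 1.01% fell and 1.15% rose, and with the block 9.91% fell and 8.4% rose. In the list of glucuronidation, sulfation and export genes, 3 of 17 tested genes fell and 0 rose (7 lower with the block; median -0.46). They were the glucuronosyltransferases Ugt2b5 (-1.42) and Ugt2b36 (-1.36) and the drug exporter Abcb1a (-1.60). Of 24 receptors and transcription factors of detoxification and enterocytes, 2 fell and 0 rose (8 lower with the block; median -0.33), namely the fatty acid receptor Ppara (-1.78) and the repressor Nr0b2 (-2.50). Nr0b2 was 0.0750, 0.143 and 0 in KO and 5.43, 2.65 and 8.52 in WT, so it passed the filter only through its WT values. Hnf4a, the most abundant of them, was 161, 198 and 215 in KO and 152, 225 and 240 in WT (-0.09, adjusted p = 0.911). Of 22 chylomicron and triglyceride genes 0 were called (9 lower with the block; median -0.33). A change below 0 was seen for 19 of them, beside 6052 of all 11717 genes tested. Apoa1, its most abundant gene, was 2401, 7135 and 4747 in KO and 4661, 9087 and 6656 in WT.

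Cell type markers also differed between the untreated genotypes. The counts called stand beside 1.01% lower and 1.15% higher over all genes tested, and 9.91% lower and 8.4% higher with the block. The summed value of 8 markers of all epithelium overlapped (4357 to 5391 in KO, 3660 to 5755 in WT; 0 of 8 called, 1 lower with the block), and that of 9 markers of mature villus enterocytes was 6103 to 11751 in KO and 11076 to 17184 in WT (0 called, 4 lower with the block). Fabp2, an abundant fatty acid binding protein of enterocytes, was 3353, 1737 and 5972 in KO and 7892, 3910 and 9830 in WT mice of couples 1, 2 and 3. Sums of macrophage markers (219 to 324 in KO, 148 to 166 in WT; 1 of 9 higher, Cd14) and T cell markers (49.3 to 57.9 in KO, 16.7 to 30.1 in WT; 1 of 8 higher, Cd3g) were higher in KO without overlap. Of 6 tested B and plasma cell genes, Mzb1 and Derl3 rose. Endothelial markers summed to 15.4 to 27.3 in KO and 29.6 to 31.2 in WT (0 of 8 called, 3 lower with the block). Adipocyte markers, named because Ces1d and Ces1f are fat cell genes as well, summed to 67.3, 71.9 and 217 in KO and 95.6, 180.4 and 92.5 in WT (0 of 7 tested genes called, 1 higher with the block). The part of these cell types in the esterase changes was not tested.

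In the couple given antibiotics, KO and WT lay closer together than in any untreated couple for 7 of the 9 members, and not for Ces1e and Ces1f. This comparison has 1 mouse per genotype and therefore no replicate check and no test. The share of all genes with this pattern was not computed, so the count describes the members only. None of the 9 members (0) was 2-fold or more lower in KO and 0 were 2-fold or more higher on the log2(value + 1) scale, where 0.964% and 3.29% of 11520 genes were. Values were lower in KO for 7 members (Ces2c turned to 0.026 higher on the log2 scale when columns were rescaled to equal sums), with a median log2 difference of -0.19, beside -0.04 over all genes. Ces2a was 110.2 in KO and 148 in WT, Ces2c was 321 in KO and 329 in WT, and Ces2e was 375 in KO and 428 in WT. Their ratios of KO to WT, 0.746, 0.976 and 0.876, lay above those of each untreated couple. Ces1d was 31.8 in KO and 36.5 in WT, and Aadac was 39.5 in KO and 45.2 in WT. Ces2b kept the largest gap, at 0.953 in KO and 2.19 in WT, a ratio of 0.435. Ces1g (65.3 in KO, 51.9 in WT) and Ces1e (12.8 in KO, 7.77 in WT) were higher in KO, while Ces1f was 51.7 in KO and 65.3 in WT.

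Whether the genotype change depended on antibiotics was tested by the interaction term over all 8 libraries. The term was above 0 for 8 of the 9 members, Ces1f excepted, and 0 members passed after adjustment. For Ces1g and Ces1e the difference in the antibiotic couple was itself above 0 (0.33 and 0.66). The members were chosen with earlier results of these data known, so this count is a description. The term was 2.68 for Ces2a (95% interval 0.18 to 5.17), 2.04 for Ces1g (0.67 to 3.41), 1.07 for Ces2b (0.16 to 1.97) and 0.98 for Ces1e (0.13 to 1.83), the 4 members whose unadjusted limma intervals leave out 0. Their adjusted p-values were 0.867 for Ces1g and 0.999 for the others. Over all 11520 genes 0 were called, with 483 at an unadjusted p under 0.05 and a median term of -0.001. With the couple as a block, adjusted p-values of the members were 0.172 to 0.373.

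Set against untreated mice, the mice given antibiotics had higher values of several members, with the largest difference for Ces1g. These levels come from columns taken as separately normalized sets. Since only 1 couple was treated, antibiotics cannot be told apart from litter or normalization. The part of the sequencing instrument was not tested. The KO mouse given antibiotics lay above all 3 untreated KO mice for all 9 members, where 19.9% of genes did. The WT mouse given antibiotics lay above all 3 untreated WT mice for 6 members, where 10.3% did. Both lay above all 6 untreated mice for 5 members, the 4 Ces1 genes and Ces2c, where 3.86% did. The KO mouse given antibiotics was within or above the untreated WT range for 7 members, Ces2a and Ces2b being the others. For this last count the share of all genes was not computed.

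Ces1g was 65.3 in KO and 51.9 in WT with antibiotics, against 1.39 to 1.98 in KO and 4.25 to 10.1 in WT without. That is 40.7 times the untreated KO mean and 6.49 times the untreated WT mean. In the fit with genotype and treatment as terms it rose by 3.66 on the log2 scale (SE 0.44, adjusted p = 0.0280), 1 of 9 members to do so, where 0.13% of genes rose and 0.026% fell. With the couple as a random block, which treats littermates as related, its adjusted p was 0.716 and 0 genes passed. The call was also lost when the untreated KO library of couple 1 (0.0684) or couple 3 (0.0619) was left out, the untreated WT library of couple 1 (0.0621), the KO library with antibiotics (0.317), or any whole untreated couple (0.0733 to 0.182), and with no filter on low values (0.254).

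Ces1f was 51.7 in KO and 65.3 in WT with antibiotics, against 16.2 to 27.3 in KO and 16.2 to 26.0 in WT without (log2 difference 1.40, SE 0.24, adjusted p = 0.0931). Ces1d had a difference of 1.77 and Ces1e of 0.99 (adjusted p = 0.115 each). Differences of the Ces2 members and Aadac were 1.19 for Ces2c, 1.10 for Ces2a, 0.57 for Ces2e, 1.02 for Aadac and -0.07 for Ces2b, with limma adjusted p of 0.154 to 0.902. The sign for Ces2b turned to 0.08 with other scalings. The median over all genes was -0.14 here, and 0.00 after quantile normalization across all 8 libraries. For Ces2a the difference sat in KO, with 110.2 with antibiotics against 23.8 ± 18.6 without, while WT had 148 with antibiotics and 181 ± 60.7 without, and without the KO library with antibiotics the difference turned to -0.23.

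Of the liver markers, Alb, Serpina1a and Cyp2e1 were higher in both mice given antibiotics than in all untreated mice. Ttr, Apoh, Tat, Fgb and Ahsg were instead highest in the untreated KO mouse of couple 1. Of 8 hepatocyte markers, 6 were at 1 or more in both mice given antibiotics, with a summed value of 394 in KO and 444 in WT, while 2 (Ahsg and Fgb) were listed at 0 in both. The sum in untreated mice was 169, 3.23 and 24.4 in KO and 2.68, 5.33 and 1.20 in WT of couples 1, 2 and 3. Alb, the albumin gene, carried most of it, at 357 in KO and 397 in WT with antibiotics, against 110.4, 0.0419 and 10.6 in untreated KO and 0.0891 to 0.163 in untreated WT. The untreated KO mouse of couple 1, in which all 8 markers were at 1 or more, had 1.45 of Ces1g, within the untreated KO range, and 16.2 of Ces1f, its lowest KO value. In the same mouse Ces1c, the liver enzyme named above, was 8.47, the highest of the 6 untreated mice, beside 7.71 in KO and 11.3 in WT with antibiotics. The part of liver RNA in the Ces1 levels was not tested. Villus enterocyte markers summed to 21477 in KO and 17936 in WT with antibiotics, above all untreated mice. T cell markers summed to 47.5 in KO and 6.53 in WT, and B and plasma cell markers to 133 in KO and 48.0 in WT with antibiotics. The part of these cell types was not tested either.

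Ces2a was the member with the largest fall on the log2(value + 1) scale, though not by ratio, and the genes nearest to it in profile were sought over the 8 libraries. The measure was the mean absolute difference of log2(value + 1) after each gene was centred on its own mean, and 11519 genes were compared. The 5 nearest were Mep1a, a brush border metalloprotease (0.42), Cyp2d26, a drug-oxidizing cytochrome (0.51), Paqr7, a membrane progestin receptor (0.55), Pdzk1, a scaffold of apical transporters (0.56), and Lct, lactase (0.57). Of the members, Ces1d ranked 20 (0.67), Ces2c 25 (0.68) and Aadac 48 (0.74). Ces2e ranked 146, Ces2b 168, Ces1e 1162, Ces1f 1661 and Ces1g 1775. Mep1a was 35.6, 43.1 and 117 in KO and 257, 346 and 404 in WT without antibiotics, and 159.8 in KO and 291 in WT with them. Lct was 11, 12.4 and 8.87 in KO and 119, 88.4 and 122 in WT without antibiotics, and 138 in KO and 136 in WT with them.

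**Figure D4:**
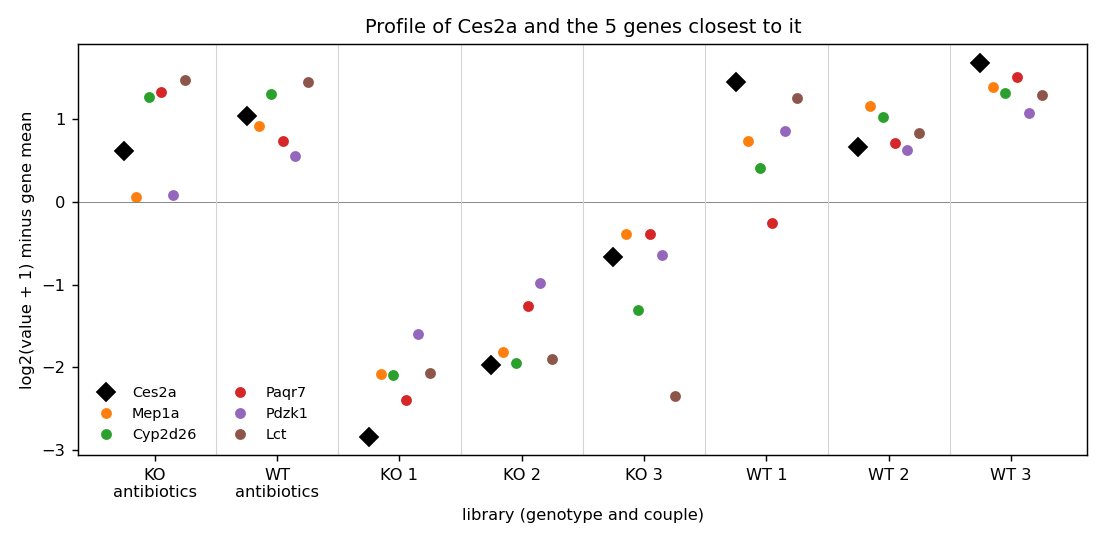
Value of Ces2a (diamonds) and the 5 genes closest to it in each library, as log2(value + 1) minus each gene's own mean over the 8 libraries (vertical axis). All 6 genes lie below their mean in the 3 untreated KO libraries and above it in both libraries of the antibiotic couple.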

How the data were processed

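Messenger RNA from distal ileum was sequenced on Illumina HiSeq and Ion Proton instruments. The instrument was not a term in any fit, so its part in the differences was not tested. Per the series' design text, the authors used CLC genomic workbench 7.5 with its defaults and the GRCm38.76 mouse genome. The sources used here do not say how reads were counted or normalized. The values as deposited carry no unit name and were taken as RPKM, since they fall with exon length (log2 slopes -0.55 to -0.36). Sorted values of couples 1 and 2 are identical, as after quantile normalization.

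In the WT antibiotic column, 376 genes share 48 values, 45 are at 0 beside a KO value of at least 1, and 2 lie over 3 log2 units low. These 423 genes, 0 members among them, were left out of fits with the antibiotic couple, a rule made after the values were seen.

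Genes that reached 1 in 3 or more libraries were fitted as log2(value + 1) with limma 3.58.1 (trended prior variance, R 4.3.3) and Benjamini-Hochberg adjustment, after tests on simulated data. The untreated fit had no block. Couple numbers mark littermates, whose deviations from the genotype means correlated (0.62, 0.64 and 0.51), so blocked values are given where they change a call. Couple 3 was also taken as a separate normalization set, so litter and normalization cannot be told apart in these correlations. Identities used Biopython 1.88. Members and lists were chosen with earlier results of these data known. The named genes are the members, the called and most abundant genes of each list, and the 5 genes nearest to Ces2a. 2 alternative pseudocounts, 2 filters, 2 scalings, the prior without a trend, the block, and each library or couple left out were tried.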

Additional observations from a re-analysis of the deposited data

Results flagged for a closer look

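Among the genes named by rule, there were 5 for which every untreated KO mouse was below its WT littermate while the KO mouse given antibiotics was above its own, on the log2(value + 1) scale. The difference between the 2 settings was tested by the interaction term in limma, and 0 of the 5 passed adjustment (adjusted p = 0.269 to 0.999). Ces1g differed by 0.33 in the antibiotic couple and by -1.10, -2.16 and -1.89 in couples 1, 2 and 3 (interaction adjusted p = 0.867). Ces1e differed by 0.66 with antibiotics and by -0.03, -0.22 and -0.72 without (interaction adjusted p = 0.999). Of the genes nearest to Ces2a in profile, Lct differed by 0.021 with antibiotics and by -3.32, -2.74 and -3.64 without (interaction adjusted p = 0.269). Paqr7 differed by 0.59 with antibiotics and by -2.14, -1.97 and -1.91 without (interaction adjusted p = 0.999). Apoa1, the most abundant of the chylomicron genes, differed by 0.17 with antibiotics and by -0.96, -0.35 and -0.49 without (interaction adjusted p = 0.999). The antibiotic couple is 1 litter, and treatment, litter and normalization cannot be told apart. The part of the sequencing instrument was not tested.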

How the results depend on the processing

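With the replicate block, members that fell in untreated KO went to 7 beside 3 (genes lower to 1161 beside 118, higher to 984 beside 135), and with no filter on low values they were 0 (4 lower, 7 higher). Without 1 library or couple they were 0 to 2 (genes lower 0 to 69, higher 0 to 74), or 2 to 5 with the block (263, 221 and 275 lower without couple 1, 2 or 3, 200 to 248 higher). Ces2b failed the filter when any 1 untreated WT library was left out. For antibiotics against none, genes lower were 3, and 8 with a pseudocount of 0.1, 1 after quantile normalization, 7 with columns rescaled to equal sums, and 0 with no filter or a random replicate block, settings in which genes higher were also 0 (beside 15). Without 1 library or couple they were 0 to 84 lower and 0 to 76 higher, the highest without the WT mouse given antibiotics. For the interaction the count was 0 in every setting run. Directions turned for Ces1f in untreated mice (-0.20 to 0.18 without 1 library or couple, 0.031 with the block and without replicate 2), for Ces2b under antibiotics (0.12 with a pseudocount of 0.1, 0.081 after quantile normalization, 0.076 with equal sums, -0.61 to 0.46 without 1 library or couple), for Ces2a under antibiotics (-0.23 to 2.44 without 1 library or couple), and for Ces2c within the antibiotic couple (0.026 with equal sums). The cause was not tested. Read depth is unknown, so no counting error could be given.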

Other observations

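Chaperones of the endoplasmic reticulum lumen, the compartment that holds the carboxylesterases, had a median change of the opposite sign. Of 15 tested genes, 2 had a fitted change below 0 in untreated KO ileum, beside 6052 of all 11717 genes tested. The median of the 15 was 0.29, and 0 of them were called by limma without the block. With the couple as a block 5 rose and 0 fell, where 8.40% of all genes rose. These were Sdf2l1 (0.91), Manf (0.69), Pdia6 (0.45), Dnajb11 (0.44) and Pdia4 (0.33), named after their values were seen. Sdf2l1, a cofactor of the chaperone BiP, was 33.4, 40.8 and 44.0 in KO and 18.4, 18.6 and 24.5 in WT mice of couples 1, 2 and 3, and 14.5 in KO and 15.7 in WT with antibiotics.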
